A study of Bos taurus with 14 samples.

Results

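The genes described here encode the proteins of the cytosolic ribosome. They were chosen by name alone, as every array probe whose gene name, or bracketed symbol in the printed description, was RPL or RPS followed by a number (with an optional letter A, L, X or Y) or was RPLP0, RPLP1, RPLP2 or RPSA. Kinases of the RPS6K type and mitochondrial ribosomal proteins were left out. The rule found 65 probes for 59 genes, of 15011 probes on the array: 35 genes of the large subunit on 37 probes and 24 genes of the small subunit on 28 probes. No probe carried the name RPSA. The RNA came from liver of 3 cattle (58, 61 and 66) and from neutrophils of peripheral blood of 4 other cattle (25, 26, 32 and 34), all Holstein heifers or steers whose ages are not given in the sources used here. Each animal was sampled on day 0 and again on day 7 and swallowed 0.2 mg per kg body weight of β-cryptoxanthin, an orange carotenoid that the body can turn into vitamin A, on day 0. The 4 groups were therefore liver on day 7 (n = 3), liver on day 0 (n = 3), neutrophils on day 7 (n = 4) and neutrophils on day 0 (n = 4), with 1 single-colour array for each sample. Animals without the carotenoid were not analysed here, so an effect of the dose cannot be told apart from anything else that changed over the 7 days.

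Each cytosolic ribosome has a small subunit, which reads the mRNA, and a large subunit, which joins amino acids, and each subunit holds its ribosomal RNA together with one copy of most of its proteins. Because the proteins are needed in equal numbers, their genes are usually expressed together and at high level, and their mRNAs begin with a terminal oligopyrimidine (TOP) tract through which the kinase complex mTORC1 controls their translation. Mature neutrophils make little new ribosome, whereas hepatocytes, which secrete most plasma proteins, keep a large stock of ribosomes.

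The probes are 60 bases long, and 7 of the 65 share a stretch of 20 bases or more with another probe of the array, so a few pairs measure overlapping sequence. The first set below shows a pair that the liver result turns on: the probe named RPL17 and an unnamed expressed sequence tag, BP109428, with the longest shared stretch (30 bases) in capitals. The bases before that stretch also match, apart from a short insertion in the RPL17 probe and the first bases of the tag, so the probes are nearly alike.
RPL17: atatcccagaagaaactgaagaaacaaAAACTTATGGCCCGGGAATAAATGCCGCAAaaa
BP109428: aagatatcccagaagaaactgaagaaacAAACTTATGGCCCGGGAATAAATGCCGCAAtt
A longer unbroken overlap, 50 bases in capitals, joins the probe for RPL27 to another tag.
RPL27: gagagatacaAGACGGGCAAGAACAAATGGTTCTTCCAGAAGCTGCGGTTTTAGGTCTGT
BP107748: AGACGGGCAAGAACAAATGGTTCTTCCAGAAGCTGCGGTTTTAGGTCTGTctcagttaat
RPS10 has a pair of probes that differ at 2 of 60 bases, A58T and A59T counted from the 5′ end of the probe. Their last 30 bases are shown, with the differing bases in capitals.
RPS10 (row 53): gttgaaagggattgttttgtgttgaatAAa
RPS10 (row 60): gttgaaagggattgttttgtgttgaatTTa

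The probes below are those of members whose values stand out in the results, in lower case because no part is marked. RPS19 and RPL7 head the liver and the neutrophil results, and RPLP2 was among the members of smallest p in neutrophils. RPL3 and its paralogue RPL3L are shown together because their probes share no stretch longer than 6 bases. The last 2 are probes whose sequence was also spotted under another gene's name, RPL30 for the RPL24 probe and C9orf21 for an RPS15A probe. The RPL7 sequence was also spotted under the name of a tag, AW484087, and the RPS13 sequence as the tag BP105039. For RPL7 and this RPS15A probe the first 30 bases are given.
RPS19: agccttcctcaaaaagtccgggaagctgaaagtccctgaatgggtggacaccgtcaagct
RPL7: tttcagttggccaaactgggtctaatctaa
RPLP2: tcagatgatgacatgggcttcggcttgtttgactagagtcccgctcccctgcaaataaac
RPL3: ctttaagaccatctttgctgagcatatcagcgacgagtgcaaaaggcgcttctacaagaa
RPL3L: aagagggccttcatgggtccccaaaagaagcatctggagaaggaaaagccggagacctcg
RPL24: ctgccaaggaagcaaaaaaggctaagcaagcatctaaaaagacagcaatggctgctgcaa
RPS15A (row 159): caccggttgaatagcatgctgagagacatc
The polyadenylation hexamer AATAAA was present in 13 of the 65 member probes (20%), against 11.3% of all probes, and its reverse complement TTTATT in 1 member, against 4.18% of all probes. It can be read in the probes for RPL17 and RPLP2 above. The median GC content was 45% (range 30% to 63.3%) for member probes and 43.3% for all probes.

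Levels are on a log2 scale on which 0 is the 75th percentile of processed signal on the array in question, and they are compared only between arrays for the same probe. Of the 65 member probes, 62 were well above background on all 14 arrays, as were 48% of all probes, and no member was saturated. A majority, 51 members, lay above the 75th percentile on every array, against 11.5% of all probes. Another 9 lay below it on every array (RPL21, RPL26, RPL28, RPL3L, RPL6, RPLP0, RPS3A and both RPS12 probes). RPL3L was well above background on 10 of 14 arrays, RPL28 on 12, and the RPS15A probe of spot row 159 on 13. Spots well above background made up 62.7% to 75.1% of an array for liver on day 7, 74.7% to 76.7% for liver on day 0, 57.1% to 69% for neutrophils on day 7 and 63.5% to 71.6% for neutrophils on day 0, where the 57.1% belongs to the day 7 array of animal 34, whose median processed signal was 48.2, against 100 to 163 on the other neutrophil arrays of day 7. The labelled tissues carried their own markers: 11 hepatocyte markers summed to 698 to 1040 times the 75th percentile in liver on day 7 and 584 to 847 times in liver on day 0, and 9 neutrophil markers to 650 to 1370 times in neutrophils on day 7 and 815 to 977 times in neutrophils on day 0. All liver arrays lay on slides that held no neutrophil array, and the days lay in different rows of arrays on the slide, so day and place on the slide cannot be told apart.

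Whether neutrophil expression differed after the carotenoid was asked with the 4 pairs of arrays. No ribosomal protein gene passed the test in neutrophils, but the estimates for 64 members tested all lay at or above 0. Their median change from day 0 to day 7 was 0.56 on the log2 scale (1.47-fold), against a median of -0.07 over all 9450 probes tested, of which 44.4% had a positive estimate. The animals differed widely: the median change of the members was 0.43 in animal 25, 0.89 in animal 26, -0.04 in animal 32 and 1.16 in animal 34, a mean of 0.61 ± 0.53 (SD, n = 4 animals). Under quantile normalization these medians were 0.63, 1.03, -0.39 and 1.04 for animals 25, 26, 32 and 34, so the size of the decrease in animal 32 depends on the scaling. In animal 26 all 64 members were higher on day 7, in animal 25 58 and in animal 34 57, whereas in animal 32 26 were. The other probes had a median of opposite sign in each animal, of -0.14, -0.11, 0.09 and -0.13 for animals 25, 26, 32 and 34.

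**Figure D1:**
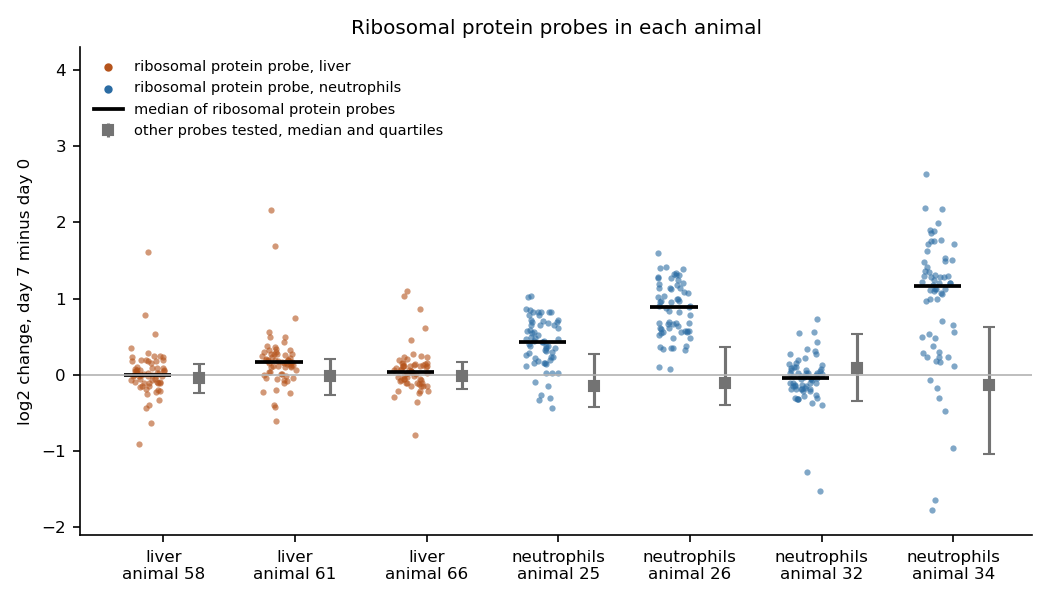
Change of each ribosomal protein probe from day 0 to day 7 (log2 day 7 minus day 0, vertical axis) in each animal, with liver animals left of neutrophil animals. Points are probes, black bars their medians, and grey squares with bars the median and quartiles of all other probes. The neutrophil medians spread from -0.04 in animal 32 to 1.16 in animal 34, while the liver medians lie between 0.00 and 0.17.

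limma with animal as a block gave 0 calls among the 64 members at an adjusted p under 0.05, beside 0 of 9450 probes tested (0%). At an unadjusted p under 0.05 it found 16 members, all higher on day 7 (25% of the members, against 13.4% of all probes), and their adjusted p-values were 0.313 to 0.373. Of these 16 probes 12 belonged to the large subunit (among them RPL3, RPL6, RPL7, RPL9, RPL10, RPL12, RPL27A, RPLP0, RPLP2 and both RPL10A probes) and 4 to the small subunit (among them RPS13, RPS18 and RPS24). The median change was the same in both subunits, 0.56 over 36 large-subunit probes and 0.56 over 28 small-subunit probes. Levels did not overlap between the days for 10 members, all higher on day 7 (15.6%, against 4.85% of all probes higher and 9.38% in either direction), among them RPL3, RPL7A, RPL8 of row 73, RPL9, RPL23A, RPL27, RPLP2 and RPS3A. All 4 animals had a higher day 7 level for 20 of the 64 members (31.2%, against 11.2% of all probes), and 3 of the 4 animals for another 38. Under quantile normalization 62 of the 64 estimates were positive and 2 negative, among them RPS29, whose estimate was 0.01 ± 0.30 without it and -0.02 with it. The count at an unadjusted p under 0.05 changed with the animal left out, among the members and over all probes. It was 31 without animal 32 (median 0.75), against 1952 of all 9577 probes tested. Without animal 34 it was 8 (median 0.41), against 1400 of 10077. It was 4 without animal 25, against 557 of 9474, and 0 without animal 26, against 690 of 9486.

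RPL7, a large-subunit protein, had the smallest p. Its levels were 1.06, 0.81, 0.25 and 2.15 in neutrophils on day 7, against 0.03, -0.78, 0.10 and 0.38 on day 0 (animals 25, 26, 32 and 34). The day 7 level of animal 32 lay inside the day 0 range and the other day 7 levels lay above it. The estimated day 7 minus day 0 difference was 1.14 ± 0.33 (SE, n = 4 animals) with an adjusted p of 0.313 by limma. RPLP2, an acidic protein of the stalk that recruits elongation factors to the large subunit, stood at 6.10, 6.03, 5.54 and 6.54 on day 7, against 5.25, 4.77, 5.32 and 5.32 on day 0. Its days did not overlap, and its estimate was 0.89 ± 0.28 (adjusted p = 0.314 by limma). RPL3, which lies close to the peptidyl transferase centre, had levels of 2.57, 1.82, 1.61 and 2.27 on day 7, against 1.54, 0.55, 1.33 and 1.56 on day 0. These too did not overlap, and the estimate was 0.82 ± 0.27 (adjusted p = 0.327 by limma).

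Other members at an unadjusted p under 0.05 are shown by animal as further examples. RPL6, a large-subunit protein, stood at -4.25, -3.87, -4.41 and -1.75 on day 7, against -4.57, -5.10, -4.75 and -4.38 on day 0 (estimate 1.13 ± 0.42). RPL10, which joins the large subunit at the end of its maturation, stood at 5.64, 5.36, 4.81 and 6.51 on day 7, against 4.82, 4.34, 4.71 and 4.88 on day 0. RPS13, a small-subunit protein, stood at 5.15, 5.29, 4.43 and 6.49 on day 7, against 4.43, 3.90, 4.53 and 4.50 on day 0 (estimate 1.0 ± 0.37). In all 3 the day 7 level of animal 34 was the highest of the 8 and that of animal 32 lay within the day 0 range. RPS27A, which is made as a fusion with ubiquitin, and RPS14 were not among the 16, and both also had their highest day 7 level in animal 34 and their lowest in animal 32. RPS27A stood at 5.12, 5.32, 4.56 and 6.09 on day 7, against 4.56, 4.13, 4.73 and 4.68 on day 0. RPS14 stood at 6.82, 6.60, 6.14 and 7.52 on day 7, against 6.20, 5.92, 6.12 and 6.17 on day 0, so that animal 32 alone overlapped the day 0 levels.

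The stalk is built on RPLP0, which anchors pairs of RPLP1 and RPLP2. RPLP0 lay far below the 75th percentile, at -4.46, -3.55, -3.96 and -2.31 in neutrophils on day 7, against -4.67, -4.11, -4.51 and -3.81 on day 0. All 4 animals were higher on day 7, though the ranges overlapped. RPLP1 stood at 4.17, 4.46, 3.82 and 5.11 on day 7, against 3.95, 3.89, 4.13 and 3.90 on day 0, with animal 32 alone lower on day 7. RPS6, the small-subunit protein that S6 kinase phosphorylates when mTORC1 is active, had levels of 5.09, 4.75, 4.26 and 4.95 on day 7, against 4.37, 3.85, 4.26 and 4.45 on day 0. Animal 32 had the same level to 2 decimals on both days and the other 3 were higher on day 7, for an estimate of 0.53 ± 0.26 (adjusted p = 0.412 by limma). RPS4X, the X-linked copy of an S4 protein, had an estimate of 0.65 ± 0.28 (adjusted p = 0.373 by limma). RPL7A varied little across animals, at 6.44, 6.36, 6.37 and 6.40 on day 7, against 5.97, 5.79, 6.07 and 5.90 on day 0. Every day 7 level lay above every day 0 level, and its estimate was 0.46 ± 0.23 (adjusted p = 0.416 by limma).

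A few members had estimates near 0. RPL4, a large-subunit protein that lines the exit tunnel, had levels of 3.56, 3.53, 2.95 and 1.09 in neutrophils on day 7, against 2.86, 2.13, 2.92 and 2.86 on day 0. RPS2, a small-subunit protein at the mRNA entry, stood at 5.94, 6.07, 5.28 and 3.68 on day 7, against 5.48, 4.75, 5.31 and 5.31 on day 0. For both, the day 7 level of animal 34 was the lowest of the 8, on the array with the weakest signal and 18 outlier spots. The same array held the highest day 7 levels of RPL6, RPL10, RPS13, RPS14 and RPS27A, and animal 34 had the largest median change of the members. The part of that array's quality in its low and high values was not tested. RPS27L, a paralogue of RPS27 that p53 induces in human cells, had an estimate of 0.00 ± 0.41, and RPS3, which sits at the mRNA entry, of 0.11 ± 0.25. Within animal 34 the members' changes ran from -1.77 to 2.63, and in animal 26 from 0.08 to 1.60.

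**Figure D2:**
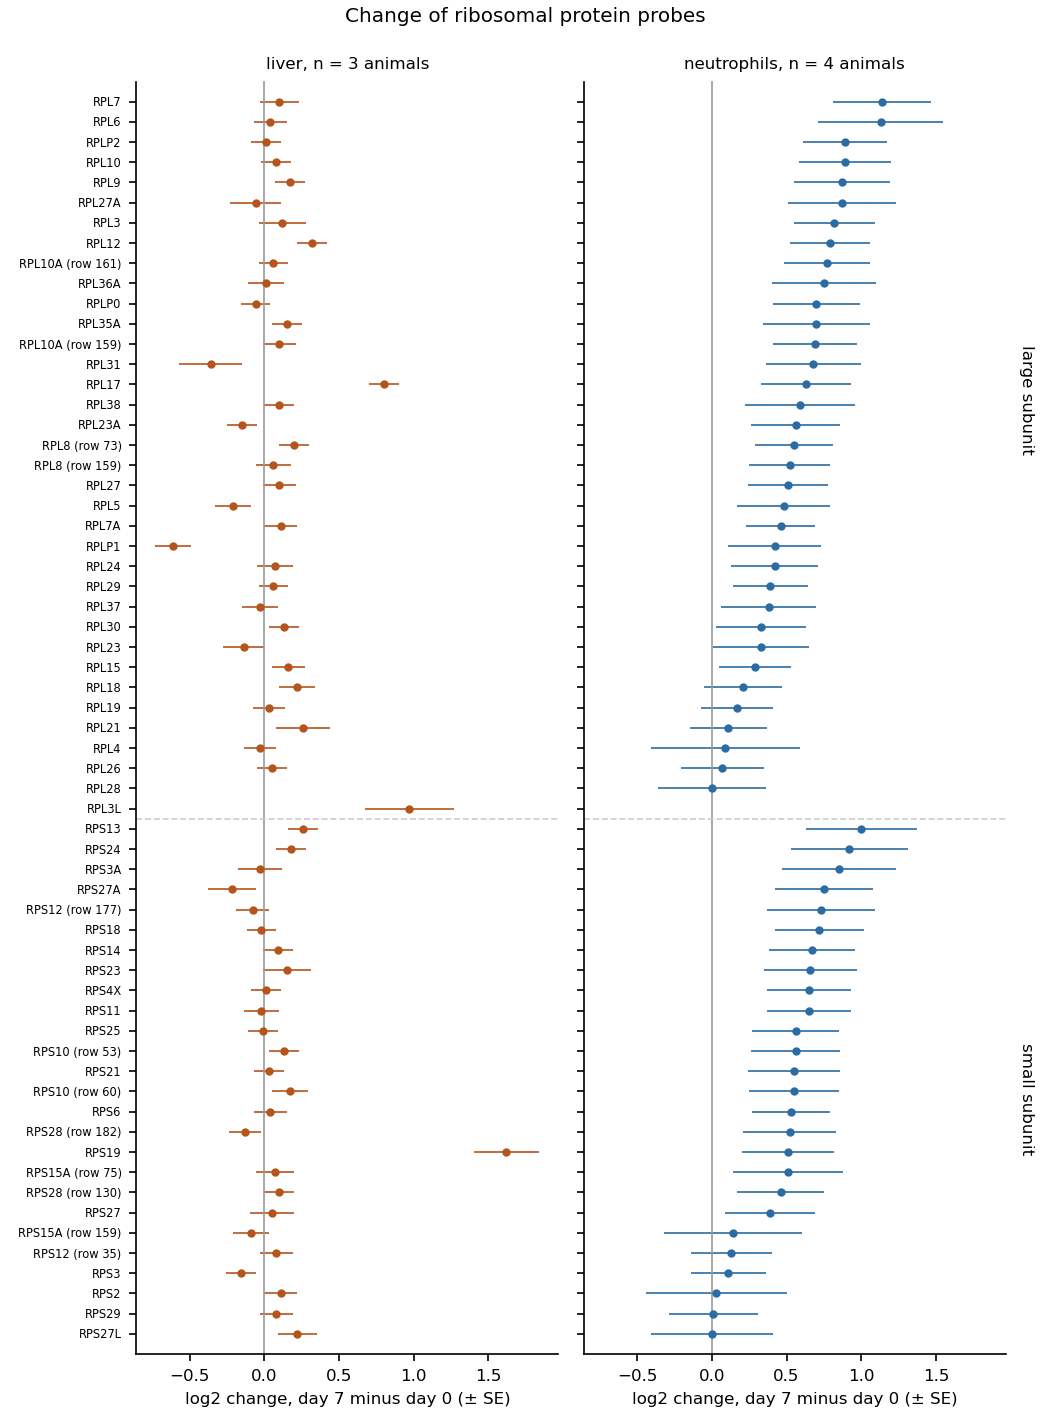
Change from day 0 to day 7 (log2, horizontal axis) of ribosomal protein probes in liver (left panel, n = 3 animals) and neutrophils (right panel, n = 4 animals). Points are estimates, bars standard errors, and large-subunit probes stand above small-subunit probes, each ordered by the neutrophil estimate. In neutrophils the estimates run from 0.00 to 1.14, and in liver most lie within 0.3 of 0. A few members are not plotted.

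Probes for the same gene or sequence gave like estimates in neutrophils in most cases. The RPS10 pair that differs at 2 bases gave 0.56 ± 0.30 and 0.55 ± 0.30, both RPL8 probes 0.55 ± 0.26 (row 73) and 0.52 ± 0.27 (row 159), and both RPL10A probes 0.69 ± 0.28 and 0.77 ± 0.29. The tag that overlaps RPL17 gave 0.70 ± 0.31, against 0.63 ± 0.30 for RPL17. The RPS12 probes were less alike, with 0.13 ± 0.27 for row 35 and 0.73 ± 0.36 for row 177, as were the RPS15A probes, with 0.51 ± 0.37 for row 75 and 0.14 ± 0.46 for row 159. A further 15 probes whose descriptions named a cytosolic ribosomal protein, but whose names did not meet the rule, were set beside the members. Their estimates in neutrophils were positive for 15 of 15, with a median of 0.68 (0.15 to 1.09), and 5 had an unadjusted p under 0.05. By animal their medians were 0.49, 1.0, -0.08 and 1.31 for animals 25, 26, 32 and 34, the same order as for the members. They include LAMR1, an older name of the laminin receptor that is also small-subunit protein SA, with 0.66 ± 0.26 (adjusted p = 0.35 by limma).

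The share of an array's summed processed signal that came from member probes was 4.94%, 4.53%, 2.31% and 6.11% in neutrophils on day 7, against 3.14%, 2.33%, 3.22% and 3.08% on day 0 (animals 25, 26, 32 and 34). It was higher on day 7 in 3 animals and lower in animal 32. The means were 4.47% ± 1.59 on day 7 and 2.94% ± 0.412 on day 0 (SD, n = 4 each). In liver the share was 5.21%, 5.14% and 4.98% on day 7, against 5.58%, 5.19% and 5.17% on day 0 (animals 58, 61 and 66), slightly lower on day 7 in each animal.

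Genes that make or regulate ribosomes were set beside the members in neutrophils, and none of them passed the test. Of 43 ribosome biogenesis genes on the array 41 were tested and 35 had a positive estimate, with a median of 0.43 and medians by animal of 0.54, 0.87, 0.15 and 0.57 (animals 25, 26, 32 and 34). LTV1, a factor that leaves the small subunit late in its assembly, had an estimate of 1.20 ± 0.34, and PNO1, which acts in the same maturation, of 0.94 ± 0.28. FBL, the methyltransferase fibrillarin that modifies ribosomal RNA, cleared the background in none of the 4 samples of day 7 and in all 4 of day 0. Its difference is therefore a bound, at least 1.35-fold lower on day 7 (adjusted p = 0.301 by limma). This bound sets the mean level of the bright group against, on each array of the dim group, the higher of the probe's own level and the lowest level of any probe well above background. Of 7 genes of RNA polymerase I, which transcribes ribosomal RNA, 6 were positive with a median of 0.56, led by POLR1H at 1.03 ± 0.38. Of 21 other TOP mRNAs tested 16 were positive with a median of 0.40. These are mostly translation factors, such as EEF1B2 at 1.0 ± 0.33 and EEF1A1 at 1.02 ± 0.38, both parts of the complex that delivers aminoacyl-tRNA. Of 9 genes of mTOR signalling 5 were positive with a median of 0.18. MLST8, a subunit of mTORC1, was at 1.05 ± 0.36, while LAMTOR4 and RRAGA, which hold mTORC1 at the lysosome, were at -0.58 ± 0.24 and -0.42 ± 0.23.

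Lymphocyte markers also had mostly positive estimates in these arrays, against 44.4% of all probes tested. No marker of any cell passed the test, as none of the 9450 probes tested did. Of 8 T and natural killer cell markers tested 7 had positive estimates, with a median of 0.63 and medians by animal of 0.68, 1.19, 0.53 and -0.02 (animals 25, 26, 32 and 34). Their summed signal was 22.5 to 104 times the 75th percentile on day 7 and 10.6 to 36.3 times on day 0. In animal 34 most of that sum came from GZMB, a protease of cytotoxic cells, at log2 levels of 6.59 on day 7 and 4.97 on day 0. B and plasma cell markers were positive for 4 of 4, with a median of 1.01 (0.71, 1.56, 1.12 and 0.63 by animal) and a summed signal of 4.0 to 7.84 on day 7, against 1.96 to 3.62 on day 0. The largest among these estimates were JCHAIN, the joining chain of secreted antibodies, at 1.56 ± 0.28 and GZMB at 1.31 ± 0.27. Neutrophil markers had a median of -0.02, with 4 of 9 positive, and their medians by animal were -0.44, -0.40, 0.63 and 0.21. Few markers of other cells were tested: 2 erythroid markers had medians of -0.49, -0.49, 0.88 and -0.87, 1 platelet marker was at -0.56, -0.69, 0.57 and -0.42, and 2 monocyte and macrophage markers had medians of -0.12, -0.17, 0.68 and -0.07. In these 4 lists animal 32, the one in which the members' median was below 0, had the highest value. It was also highest for the mTOR (0.54), hepatocyte (0.08), endothelium (0.99) and fibroblast (1.19) lists. Its other probes had a median of 0.09, above those of the other animals. It was not highest for the lymphocyte, eosinophil, muscle and cholangiocyte lists, nor for ribosome biogenesis, RNA polymerase I and other TOP genes. The eosinophil marker CCR3 was at -1.56 ± 0.33 and lower in all 4 animals. The part of these cells in the ribosomal protein values was not tested, and in bulk samples fewer cells of a type and less RNA per cell cannot be told apart.

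**Figure D3:**
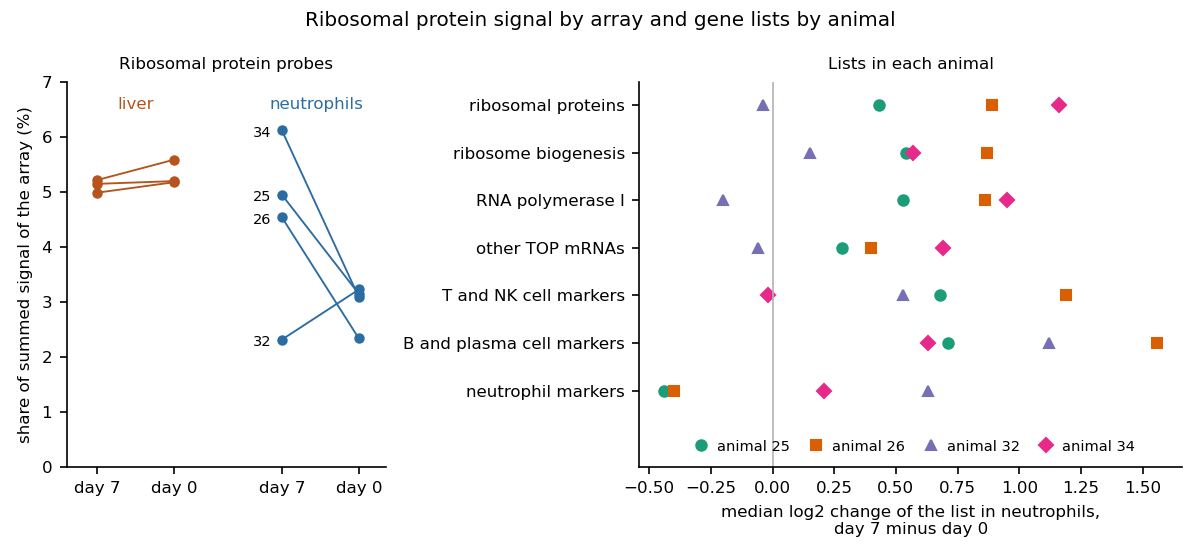
Left panel: share of summed signal from ribosomal protein probes on each array (percent, vertical axis), with lines joining the days of an animal. Right panel: median change of the ribosomal proteins and of other gene lists in each neutrophil animal (log2 day 7 minus day 0, horizontal axis). The neutrophil shares run from 2.31% to 6.11% on day 7 and from 2.33% to 3.22% on day 0.

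In liver the estimates for the ribosomal proteins were small. The median change of 64 members tested was 0.07 (1.05-fold), against -0.04 over all 10935 probes tested, and the medians by animal were 0.00, 0.17 and 0.04 for animals 58, 61 and 66 (mean 0.07 ± 0.09, SD, n = 3 animals). Of the 64 members 57 had an estimate within 0.3 of 0 on the log2 scale (89.1%, against 74% of all probes). The median SE of a member was 0.11 in liver and 0.30 in neutrophils. With quantile normalization the liver median was -0.06, so it has no settled sign. By limma 2 members were higher on day 7 at an adjusted p under 0.05, RPS19 and RPL17, and none was lower, beside 3.98% of all probes tested in both directions and 2.67% higher. Day 7 and day 0 levels did not overlap for 10 members (15.6%, against 15.2% of all probes), 9 of them higher on day 7 (7.29% of all probes) and 1 lower (7.94%). All 3 animals were higher on day 7 for 19 members (29.7%, against 17.8% of all probes), and 7 had an unadjusted p under 0.05 (10.9%, against 17.9% of all probes). Without animal 58 or without animal 61 no member passed the test, and without animal 66 1 did. Over all probes, 0 of 11139 passed without animal 58, 116 of 11031 (1.05%) without animal 61 and 159 of 11170 (1.42%) without animal 66.

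Both calls lay near the top edge of the array, where most probes read higher on day 7 in liver. Over all probes, the median liver change was 0.54 in the 16 spot rows at the top edge, 0.09 in the next 24 rows, -0.04 in the middle 112 rows, -0.09 in the 24 rows after them and -0.38 in the 16 rows at the bottom edge. The members followed the same order, with medians of 1.02 (2 probes), 0.15 (7 probes), 0.09 (33 probes), 0.03 (12 probes) and -0.13 (8 probes). RPS19, a small-subunit protein whose human gene is often mutated in Diamond-Blackfan anaemia, sat in row 1. Its levels were 2.9, 2.7 and 1.76 in liver on day 7, against 1.30, 0.53 and 0.67 on day 0 (animals 58, 61 and 66), with no overlap. The change was 1.62 ± 0.22 (SE, n = 3 animals; adjusted p = 0.0371 by limma), while the median over the 53 probes tested in that row was 1.83. After a smooth trend along the rows was removed, the change of RPS19 was -0.18 and its adjusted p 0.8 by limma.

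**Figure D4:**
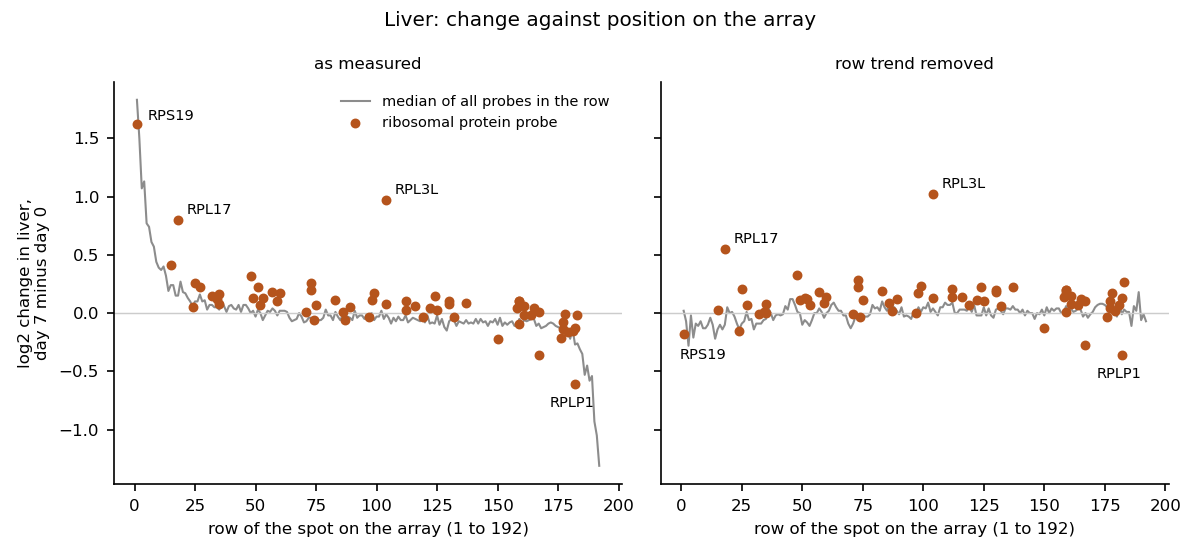
Liver change from day 0 to day 7 (log2, vertical axis) of ribosomal protein probes against their spot row on the array (horizontal axis), as measured and with the row trend removed. The grey line is the median of all probes in each row. RPS19 at 1.62 lies near the row 1 median of 1.83, and RPL17 at 0.80 lies above its row median of 0.15.

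RPL17, which lines the exit tunnel of the large subunit, sat in row 18, where the median change was 0.15. Its levels were 5.05, 5.04 and 5.05 in liver on day 7, against 4.27, 4.29 and 4.18 on day 0, without overlap and with little spread within a day. The change was 0.80 ± 0.10 (adjusted p = 0.0278 by limma), and 0.55 with the row trend removed, where it no longer passed the test (adjusted p = 0.197). Nor did it pass under quantile normalization, at 0.64 (adjusted p = 0.062 by limma). The tag BP109428 in row 92, whose sequence is nearly that of this probe, stood at 4.52, 4.65 and 4.85 on day 7, against 4.35, 4.49 and 4.70 on day 0. It was higher on day 7 in each animal but by less, 0.16 ± 0.09 (adjusted p = 0.478 by limma), and 0.17 with the trend removed. The 2 probes therefore gave changes of unequal size for nearly the same sequence.

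RPLP1, the stalk protein, had the largest negative estimate in liver. Its levels were 3.95, 3.74 and 3.25 on day 7, against 4.58, 4.16 and 4.04 on day 0, without overlap and lower on day 7 in each animal. It lay in row 182, where the median change was -0.27. The estimate of -0.61 ± 0.12 did not pass the test (adjusted p = 0.0781 by limma), and was -0.36 with the trend removed, but it passed under quantile normalization at -0.72 (adjusted p = 0.0431 by limma). Its partners stood near 0, RPLP2 at 0.01 ± 0.10 and RPLP0 at -0.06 ± 0.10, as did RPS6 at 0.04 ± 0.11 and RPS4X at 0.01 ± 0.10. Of the members named for their neutrophil values, RPL7 was at 0.10 ± 0.13 and RPL3 at 0.12 ± 0.16 in liver.

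Outside the rows at the edges, RPL12 and RPS13 were higher on day 7 in each liver animal, while RPL31 and RPS27A differed between animals in sign. RPL12, at the base of the stalk, stood at 5.15, 5.02 and 4.56 on day 7, against 4.91, 4.59 and 4.28 on day 0, higher in each animal though the ranges overlapped (0.32 ± 0.10, adjusted p = 0.216 by limma). RPS13 stood at 5.79, 5.61 and 5.43 on day 7, against 5.54, 5.33 and 5.19 on day 0, also higher in each animal (0.26 ± 0.10, adjusted p = 0.266 by limma). RPL31 had the most negative liver estimate after RPLP1, at -0.36 ± 0.21, with levels of 1.95, 2.64 and 2.52 on day 7, against 2.87, 2.60 and 2.73 on day 0. That difference came mainly from animal 58, and animal 61 was slightly higher on day 7. RPS27A stood at 5.31, 4.38 and 4.77 on day 7, against 5.43, 4.99 and 4.71 on day 0, where animal 61 gave most of the difference.

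RPL3L, the paralogue of RPL3 that is expressed mainly in striated muscle, had the largest liver estimate outside the edge rows. Its levels were -5.21, -4.14 and -4.91 on day 7, against -5.41, -5.83 and -5.94 on day 0, and the days did not overlap. The probe was well above background on 2 of 3 liver arrays of day 7 and on all 3 of day 0. The estimate of 0.97 ± 0.30 did not pass the test (adjusted p = 0.201 by limma). In the same arrays all 9 skeletal muscle markers passed the test, higher on day 7. On day 0, 5 of the 9 were not well above background on any liver array, so their differences are bounds, at least 8.82-fold for MYH1, a myosin heavy chain, to at least 80.3-fold for MYL1, a myosin light chain. With those 5 at their bounds the median of the 9 was 5.34 on the log2 scale, against 6.35 as measured. Their summed signal was 4.58 to 19.1 times the 75th percentile on day 7, against 0.0454 to 0.158 on day 0. The part of muscle RNA in the RPL3L value was not tested.

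Of 41 ribosome biogenesis, 7 RNA polymerase I, 22 TOP and 9 mTOR genes tested in liver, 3 passed the test, all in rows at the edges. Over all probes tested 3.98% passed, a share near that of these genes. Of 41 ribosome biogenesis genes tested 1 rose, LAS1L in row 2, which cuts a spacer from the ribosomal RNA precursor. Its probe cleared the background in 3 of 3 samples of day 7 but in only 1 of 3 of day 0, so the size of the difference is uncertain. Its levels were -1.51, -1.57 and -3.04 on day 7, against -6.49, -8.01 and -8.95 on day 0, and it passed the test both as measured (adjusted p = 0.00696 by limma) and with the trend removed (0.0354). In the same list 1 gene fell, PPAN in row 190, at -0.87 ± 0.12 (0.00 with the trend removed). The list's median was 0.09. EEF2, the translocation factor of the ribosome and a TOP mRNA, fell by 1.20 ± 0.17 in row 190 (adjusted p = 0.039 by limma), and its estimate was -0.33 with the trend removed. The other 21 of 22 TOP mRNAs tested did not pass, and the median of the 22 was 0.11. None of 7 RNA polymerase I genes (median 0.34) and none of 9 mTOR genes (median 0.13) passed. Hepatocyte markers had a median of 0.19, with 1 of 11 called.

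The difference between the tissues was tested directly, as the day effect in liver minus that in neutrophils. Its median over 63 members was -0.49, against 0.03 over all 8841 probes tested, and 56 of the 63 estimates were negative. No member passed by limma at an adjusted p under 0.05, which 1.14% of all probes did (0.724% higher and 0.419% lower). At an unadjusted p under 0.05 there were 7 members (11.1%, against 13.5% of all probes). This count changed with the animal left out, as did that over all probes. It was 32 without animal 32 (median -0.74), against 2155 of all 8940 probes tested. It was 6 without animal 25 (944 of 8847), and 3 without animal 34 (1657 of 9219) or animal 61 (719 of 8872). It was 1 without animal 26 (1037 of 8866) or animal 66 (766 of 8957), and 0 without animal 58 (750 of 8918). RPLP2 had the smallest p, with -0.88 ± 0.32 (adjusted p = 0.268 by limma), followed by RPLP1 at -1.03 ± 0.37 (adjusted p = 0.27), and RPL7 was at -1.03 ± 0.41 (adjusted p = 0.315). RPS19, at 1.11 ± 0.42 (adjusted p = 0.294), ran the other way, and turned to -0.81 once the row trend was removed. RPL23A, at the tunnel exit, was the 1 member lower on day 7 in all 3 liver animals and higher in all 4 neutrophil animals. Its levels were 3.7, 3.83 and 3.78 in liver on day 7, against 3.8, 4.05 and 3.92 on day 0, and 3.98, 4.3, 4.0 and 5.17 in neutrophils on day 7, against 3.84, 3.51, 3.96 and 3.89 on day 0. The test of this difference gave -0.71 ± 0.35 (adjusted p = 0.43 by limma). Both comparisons within a tissue enter this contrast, so it is no further evidence for either.

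Liver was set against neutrophils on day 0. By limma, 35 of 65 members passed the test (53.8%), against 83.1% of all 11498 probes tested. Of the 35, 27 were higher in liver (39.7% of all probes were) and 8 lower (43.5%). The median difference was 0.29 (1.22-fold), against -0.12 over all probes. With quantile normalization the split was 43 higher and 5 lower (89.6% higher, against 77.1% without it) with a median of 0.73, so the size of the excess depends on the scaling. Levels did not overlap between the tissues for 37 members (56.9%, against 82.4% of all probes), 29 of them higher in liver (39.1% of all probes) and 8 lower (43.2%). Tissue, animals and slide cannot be told apart here.

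The largest difference was that of an RPS15A probe in row 159, at 0.86, 0.36 and 0.77 in liver on day 0, against -4.53, -5.14, -4.85 and -3.97 in neutrophils on day 0, a gap of 5.29 ± 0.29 (SE; adjusted p = 5.94e-07 by limma). The other RPS15A probe, in row 75, was lower in liver, at -0.56 ± 0.17, but did not pass under quantile normalization (-0.18) or with the row trend removed (-0.35). The 2 differed by 5.84 on the log2 scale, and the sequence in row 159 was also spotted as C9orf21, so its value cannot be given to RPS15A. Among the remaining members higher in liver were RPL6 at 1.71 ± 0.33, RPL7 at 1.49 ± 0.27, RPS27L at 1.43 ± 0.22, RPS28 of row 130 at 1.32 ± 0.18 and RPS18 at 1.30 ± 0.17 (0.85 with the row trend removed). RPL4, RPL5, RPS2 and RPL10 followed at 1.27, 1.25, 1.08 and 1.02. RPL5 carries the smallest ribosomal RNA into the large subunit and can bind the p53 regulator MDM2.

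RPL28 led the members lower in liver, at -4.42, -4.51 and -7.18 in liver on day 0, where 2 of 3 arrays were well above background, against -2.96, -2.43, -2.92 and -2.90 in neutrophils on day 0. The groups did not overlap, with a difference of -2.57 ± 0.62 (adjusted p = 0.00476 by limma). RPL17 was lower in liver, at -1.05 ± 0.15 (-0.66 under quantile normalization), while the tag that overlaps it differed by -0.27 ± 0.16 (adjusted p = 0.151 by limma). RPS12 of row 35 was at -0.83 ± 0.15, whereas the other RPS12 probe was at 0.26 ± 0.19, and RPL31, RPL3L and RPS10 of row 60 were at -0.58, -0.57 and -0.40. Under quantile normalization RPL31 was at -0.10 and RPS10 of row 60 at -0.06, and with the row trend removed RPL3L was at -0.26, none of them passing. RPS19 was at -1.55 ± 0.26 but at 0.55 with the row trend removed. RPS4X differed by -0.14 ± 0.17.

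**Figure D5:**
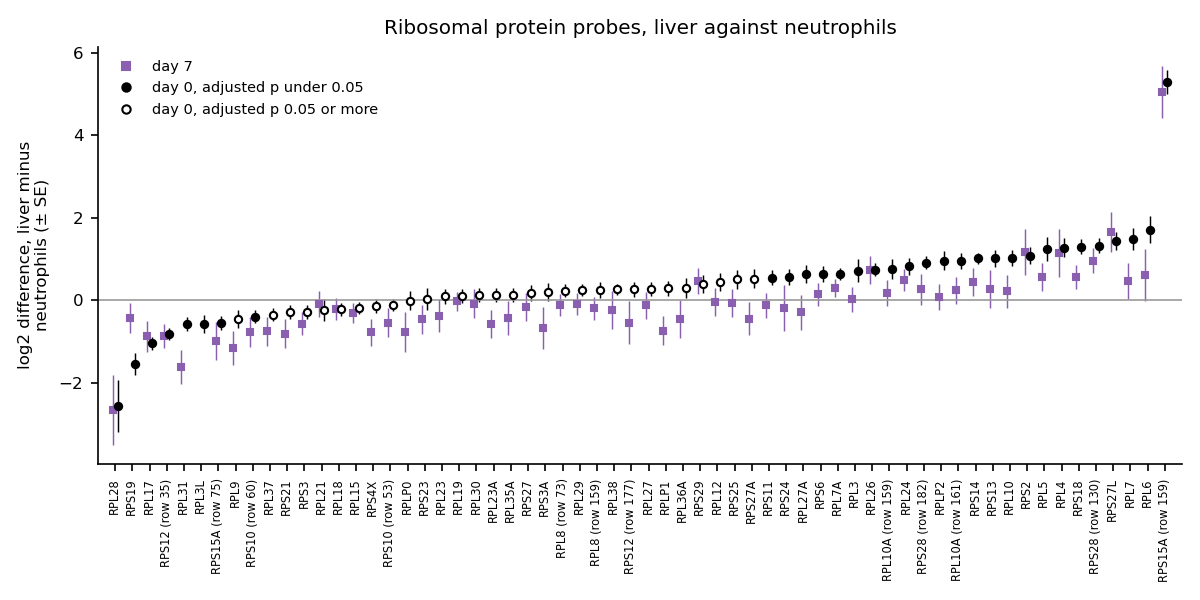
Difference in level between liver and neutrophils (log2 liver minus neutrophils, vertical axis, bars are standard errors) for ribosomal protein probes, ordered by the day 0 estimate, with a few members not plotted. Filled circles passed the test on day 0, open circles did not, and squares are day 7 estimates. RPL28 at -2.57 and an RPS15A probe at 5.29 on day 0 stand at the ends.

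On day 7 the same comparison called 7 of 64 members (69.1% of all probes tested passed), and the median difference was -0.13. RPS15A of row 159 at 5.05 ± 0.63, RPS27L at 1.65 ± 0.48 and RPS28 of row 130 at 0.96 ± 0.31 were higher in liver. RPL28 at -2.66 ± 0.85, RPL31 at -1.62 ± 0.42, RPL9 at -1.17 ± 0.41 and RPS12 of row 35 at -0.88 ± 0.29 were lower. RPL31 stood at 1.95, 2.64 and 2.52 in liver on day 7, against 3.8, 3.86, 3.30 and 5.03 in neutrophils on day 7, without overlap. The median level of the members, array by array, was 4.84, 4.65 and 4.48 in liver on day 7, 4.68, 4.46 and 4.37 in liver on day 0, 4.65, 4.62, 4.2 and 5.0 in neutrophils on day 7 and 4.22, 3.85, 4.26 and 4.26 in neutrophils on day 0. Every liver array of day 0 lay above every neutrophil array of day 0 in this median, and on day 7 the 2 tissues overlapped.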

How the data were processed

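Total RNA was amplified linearly before labelling, per the labels. Per the file headers, the authors scanned single-colour (Cy3) Agilent arrays and made the processed signal intensity with Agilent Feature Extraction 9.5.1.1, with background and a spatial trend subtracted within each array. The authors' deposited value table holds log2 values that equalled the levels used here plus a constant of 0.00692 to 0.013 per array. No genome build was stated in what was used here, and no probe was placed on a genome. Control and outlier spots were left out, spots of 1 sequence averaged, and each array's 75th percentile of log2 signal subtracted. Gene names are those of the array's design, and 23 of 23 member accessions found in a RefSeq gene table carried the same symbol.

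A probe had to be well above background throughout 1 or more of the groups compared. For the difference between tissues this had to hold in each tissue. Probes were tested with limma 3.58.1 in R 4.3.3 (lmFit and eBayes, two-sided, with animal as a block within a tissue), and p-values were adjusted by Benjamini-Hochberg over all probes tested. Tests were checked on simulated data with planted changes larger than any day 7 change of a member and no trend along the spot rows. The check therefore cannot show the power for changes of the size seen here or the errors under such a trend. The block rests on the labels, which name the animal sampled at each time. Deviations of an animal's arrays from their group means correlated at 0.65, 0.31 and 0.61 for liver animals 58, 61 and 66, and at 0.61, 0.36, 0.03 and 0.24 for neutrophil animals 25, 26, 32 and 34. The row trend was a loess curve (span 0.08) through row medians. The number of arrays limits the precision. Named probes were up to 10 called in each direction, or else those of smallest p up to 4, together with the stalk proteins, paralogues and RPS6 and, from each gene list, the 3 of smallest p. Other members were named after their values were seen, and a few members, included in the counts and medians, are not reported here by name. Members and lists were chosen with earlier results of these data known.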

Additional observations from a re-analysis of the deposited data

Results flagged for a closer look

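The day 0 neutrophil sample of animal 26 stood apart from the other 3 animals for 3 named members, by the gap to its nearest neighbour as a share of the group's range. RPLP2 was at 4.77 in animal 26, against 5.25 to 5.32 in the others, and RPL4 at 2.13, against 2.86 to 2.92. RPL28 was at -2.43, against -2.96 to -2.90 in the others. A total of 66 sets of 4 neutrophil values were examined against the critical value of Dixon for 4 samples. They were the levels of named members on day 7, those on day 0 and the changes by animal. Chance alone marks about 1 set in 20, and the 3 marked here are near that share. The cause was not tested.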

How the results depend on the processing

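In liver the count of members past the threshold was 2, beside 3.98% of all probes. It was 0 with no filter on dim probes (0% of all probes), 0 with the row trend removed (0.229%) and 0 in the inner rows alone (0%). It was 1 without the animal as a block (1.92%) and 1 with a single model over all arrays (1.62%). When an animal was left out it was 0 to 1, beside 0 to 159 of all probes. It was 3 with normexp and quantile normalization (4.74%) and 3 for probes well above background on every array (5.64%). With quantile normalization of the processed signal it was 2 (3.59%), of which 1 was among the original 2. With the row trend removed RPS19 was at -0.18 in liver, -0.81 in the difference between tissues and 0.55 in liver against neutrophils on day 0. In neutrophils the count was 0 under every alternative but array weights, where it was 39, beside 45.6% of all probes. Those weights were 8.82 to 8.9 for animal 25 and 0.242 to 1.42 for the others. For the difference between tissues the count was likewise 0 except with array weights (26, beside 33.4% of all probes), and that weight estimate did not converge. For liver against neutrophils on day 0 the count was 35, beside 83.1% of all probes. In the inner rows alone it was 16 (34 members tested), beside 82.9%, and on the day 7 arrays 7, beside 69.1%. It was 22 for members named by the symbol alone (an alternative chosen after seeing the data). When an animal was left out it was 30 to 34, beside 79.7% to 81.7% of all probes. Dropping the animal block, that is the pairing by animal, left the neutrophil count at 0 and the difference between tissues at 0. The members' median changed sign in liver under quantile normalization (-0.06, against 0.07) and kept its sign in neutrophils, where leaving out an animal gave 0.41 to 0.75. The cause of these differences was not tested, apart from fewer probes in the inner rows. With 3 or 4 animals a tissue, dim members such as RPL3L and RPL28 are the least certain.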
